A study of Mus musculus with 13 samples.

Results

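Amino acid and monocarboxylate carriers are membrane proteins that move amino acids, taurine, creatine, transmitters, lactate and related metabolites across the cell membrane. They were taken here as the genes of the solute carrier families SLC1, SLC3, SLC6, SLC7, SLC16, SLC36, SLC38 and SLC43, by the gene symbol of each array probe. The rule found 101 of the 41174 probes, which stand for 73 genes. One of them, Slc7a6os, is an opposite-strand gene beside Slc7a6 and not a carrier, so 72 genes are carriers. Of the 73 genes, 71 were well above background on at least 3 of 13 arrays and were tested (70 without Slc7a6os), among 32047 genes in all. The other 2 are Slc6a19, well above background on 0 arrays, and Slc6a5, on 1 array.

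Expression was measured in mouse retina on 13 arrays, of which 6 held tip samples, 4 held stalk samples and 3 held control samples of nonvascular retina, each hybridised in Cy5 on an array that also held a common reference RNA, Universal Mouse Reference RNA, in Cy3. In angiogenesis the tip cell guides the new sprout, and the stalk cells behind it proliferate and form the tube. The labels give no strain, age or treatment and do not say how the cells were collected or which animals they came from, so p-values measure only the spread between these samples, which may be partly technical. A level below is the log2 ratio of sample over reference, which compares samples for 1 probe and does not rank genes against each other.

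Large neutral amino acids such as leucine enter cells through heterodimers of the heavy chain Slc3a2 with light chains of the SLC7 family, and this exchange feeds the mTORC1 growth pathway. Endothelium of the brain and retina carries such exchangers, together with carriers for taurine, cationic amino acids and lactate, since the blood barrier stops these solutes from leaking through. In neural tissue the SLC1 and SLC6 families also clear glutamate, GABA and glycine, and SLC38 carriers pass glutamine between glia and neurons. Amino acid shortage activates the transcription factor ATF4, which binds a composite element in carrier genes, and low oxygen acts on some carrier genes through HIF.

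Promoters of 4 carriers are shown, as the 200 bases before the start site from RefSeq on build GRCm38.p6. The first are those of Slc38a5 and Slc3a2, carriers whose tip arrays all lay below their stalk arrays. Slc7a11 is shown for its ATF4-type elements and Slc16a3 for its HIF-type elements. Capitals mark the letters TGATGNAA (a core of the ATF4 composite element), ACGTG (the HIF core) and CACGTG (an E-box that contains ACGTG), searched on both strands, so a match on the other strand reads as its reverse complement.
Slc38a5, chrX:8271181-8271380, plus strand: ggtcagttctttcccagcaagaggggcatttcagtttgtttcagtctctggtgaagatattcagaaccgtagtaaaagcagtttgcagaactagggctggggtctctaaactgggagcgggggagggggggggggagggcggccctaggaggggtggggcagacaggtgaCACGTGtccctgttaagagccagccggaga
Slc3a2, chr19:8713898-8714097, minus strand: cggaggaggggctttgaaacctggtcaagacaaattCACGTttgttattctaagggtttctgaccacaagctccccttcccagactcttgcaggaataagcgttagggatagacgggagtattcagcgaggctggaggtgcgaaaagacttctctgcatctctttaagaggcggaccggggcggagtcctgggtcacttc
Slc7a11, chr3:50443614-50443813, minus strand: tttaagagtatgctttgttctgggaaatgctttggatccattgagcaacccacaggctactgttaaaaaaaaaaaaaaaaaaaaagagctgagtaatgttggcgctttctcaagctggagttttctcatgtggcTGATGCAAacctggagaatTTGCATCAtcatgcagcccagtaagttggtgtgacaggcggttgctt
Slc16a3, chr11:120948867-120949066, plus strand: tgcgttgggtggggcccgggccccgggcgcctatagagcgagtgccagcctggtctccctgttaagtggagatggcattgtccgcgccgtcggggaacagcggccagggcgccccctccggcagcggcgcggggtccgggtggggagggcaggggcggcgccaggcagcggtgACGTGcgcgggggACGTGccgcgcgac
Slc38a5 held the E-box 30 bases before its start, Slc3a2 held ACGTG 164 bases before, and Slc16a3 held it 27 and 14 bases before. Slc7a11 held TGATGNAA 66 and 47 bases before, in opposite orientations. Of the 71 members, 49 had an entry outside a chromosome that was left out of the member search, with 69 promoters in all. The larger set used for comparison was not filtered in this way. TGATGNAA was in 2.9% of these promoters, against 2.87% of 32851 promoters of the same length, ACGTG in 20.3% against 14% and CACGTG in 11.6% against 5.26%. These matches describe the letters of the window and are no evidence of binding.

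Of the 71 members, 67 were well above background on every array and 0 were saturated. Red was well above background for 85.0% to 95.4% of spots per array. Passing it therefore says little about how well a carrier was measured. Of the 25 members with 2 or more probes, 12 had probes apart by over 0.5 (log2) for tip minus nonvascular. Red signal over background had array medians of 105 to 292 for tip, 98.1 to 141 for stalk and 166 to 282 for nonvascular samples, and the number of arrays limits the precision. Endothelial markers had a mean level of 2.53 to 2.87 on tip arrays and 2.91 to 3.09 on stalk arrays, against 0.45 to 0.74 on nonvascular arrays, and 9 of 10 were higher in tip than in nonvascular samples. Markers of pericytes, which wrap retinal vessels, were at 1.25 to 1.66 in tip, 2.14 to 2.45 in stalk and −0.86 to −0.64 in nonvascular samples. Tip minus stalk, 8 of these 10 pericyte genes were called lower and 0 higher. Ganglion cell markers stood at 0.44 to 0.83, −0.30 to 0.68 and 2.65 to 2.89 in tip, stalk and nonvascular samples.

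Nonvascular replicate 3 stood apart from the other 2 nonvascular arrays. Its astrocyte markers averaged 1.77, against 0.51 and 0.50 in replicates 1 and 2, and its Mueller glia markers 1.31, against 0.53 and 0.21. Tip arrays had 1.82 to 2.14 and stalk arrays 1.93 to 2.19 for astrocyte markers, and 1.49 to 1.77 and 1.55 to 1.69 for Mueller glia markers. Among astrocyte markers the defining genes Gfap and Pax2 averaged 0.09 and −0.15 in tip, 0.16 and −0.03 in stalk and −0.03 and −0.18 in nonvascular samples, and were called in no comparison. In such bulk samples fewer cells of a type and less RNA per cell cannot be told apart. Some of the results that moved with this array are given with and without it.

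Between tip and stalk, 3 carriers were higher in tip (Slc16a6, Slc7a3 and Slc1a1) and 6 were lower (Slc6a6, Slc7a8, Slc7a5, Slc3a2, Slc16a4 and Slc16a9), of 71 tested (limma, adjusted p under 0.05). These are 4.23% and 8.45% of the members, beside 1.47% higher and 1.32% lower among all 32047 genes (2.79% in either direction). Of 251 other Slc genes, 6 were higher and 8 lower. The median difference of the members was −0.02 and that of all genes 0.00. An unadjusted p under 0.05 was found for 24 of 71 members, beside 5783 of all 32047 genes. The array ranges of tip and stalk did not overlap for 1 of 71 members above and 8 of 71 below. Among all genes these shares were 2.73% above and 2.74% below. With each array centred on its median in place of loess, 1 carrier was higher and 6 were lower, and over all genes 49 were higher and 203 lower, against 471 and 422 with loess.

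**Figure D1:**
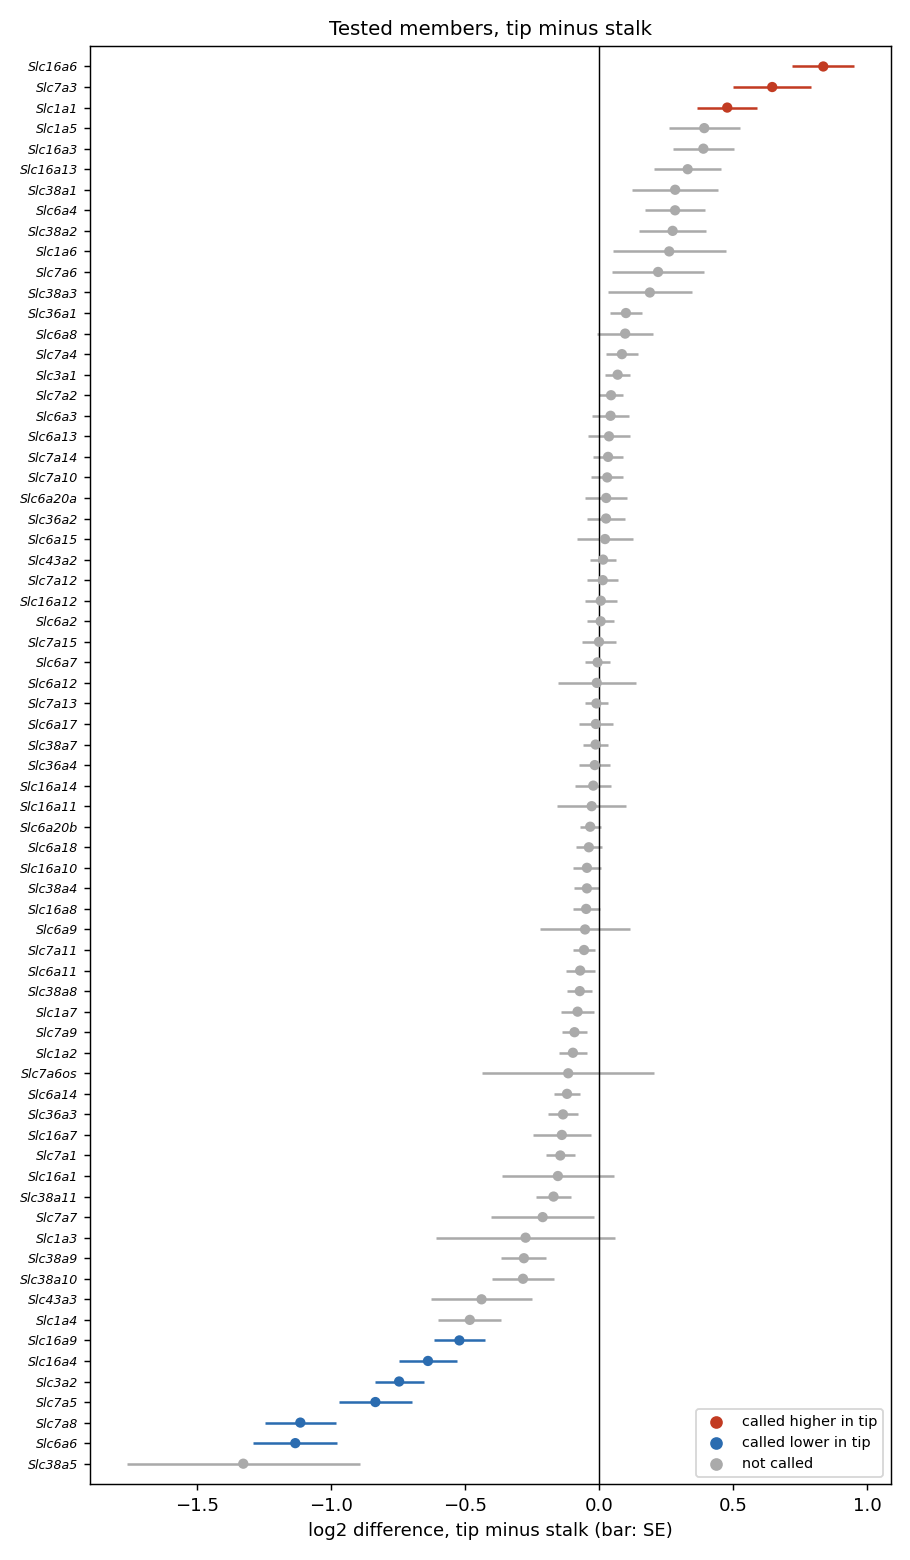
Tip minus stalk difference (log2, x axis) of the tested members reported here (y axis), with bars for the standard error; red marks members called higher in tip, blue those called lower and grey those not called. Most members lie near 0, and the 6 called lower range from −1.13 to −0.52, while Slc38a5 has the lowest difference (−1.33) and the widest error.

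Among the heterodimeric exchangers, the heavy chain and both of its classical light chains were lower in tip. Slc3a2 (4F2hc, also CD98) had a lowest, median and highest level of 1.22, 1.31 and 1.65 on tip arrays, against 2.07, 2.26, 2.07 and 2.05 on the 4 stalk arrays and 0.41, 0.62 and 0.78 on the nonvascular arrays. Every tip array lay below every stalk array and above every nonvascular array. The tip minus stalk difference was −0.75 ± 0.09 (SE, adjusted p = 0.000968), a 1.68-fold lower level in tip. Slc7a5 (LAT1), the leucine and phenylalanine exchanger of barrier endothelium, had 0.61, 0.98 and 1.18 on tip arrays, against 1.57, 1.74, 1.75 and 2.02 on stalk arrays and −0.45, −0.46 and 0.13 on nonvascular arrays. The 3 groups were again separate, in the same order. Slc7a5 was 1.78-fold lower in tip than in stalk (−0.83 ± 0.14, adjusted p = 0.0066), and with array brightness in the model the adjusted p was 0.0762.

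Slc7a8 (LAT2), a light chain with a wider range of neutral substrates, followed another order. Its levels were 0.15, 0.46 and 0.74 (lowest, median, highest) on tip arrays, against 1.34, 1.48, 1.68 and 1.74 on stalk arrays and 1.11, 1.51 and 1.43 on nonvascular arrays. Tip arrays thus lay below both other groups, whose ranges overlapped. The difference was −1.11 ± 0.13 from stalk (adjusted p = 0.000824) and −0.90 ± 0.15 from nonvascular retina (adjusted p = 0.00037), whereas stalk minus nonvascular was 0.21 ± 0.16 (adjusted p = 0.372). Slc3a2 has another probe, with a tip minus stalk difference of −0.10, and the mean of both gave −0.42. Over all alternatives Slc3a2 and Slc7a8 kept their calls between tip and stalk (adjusted p = 0.000339 to 0.0375 and 0.000716 to 0.0138).

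**Figure D2:**
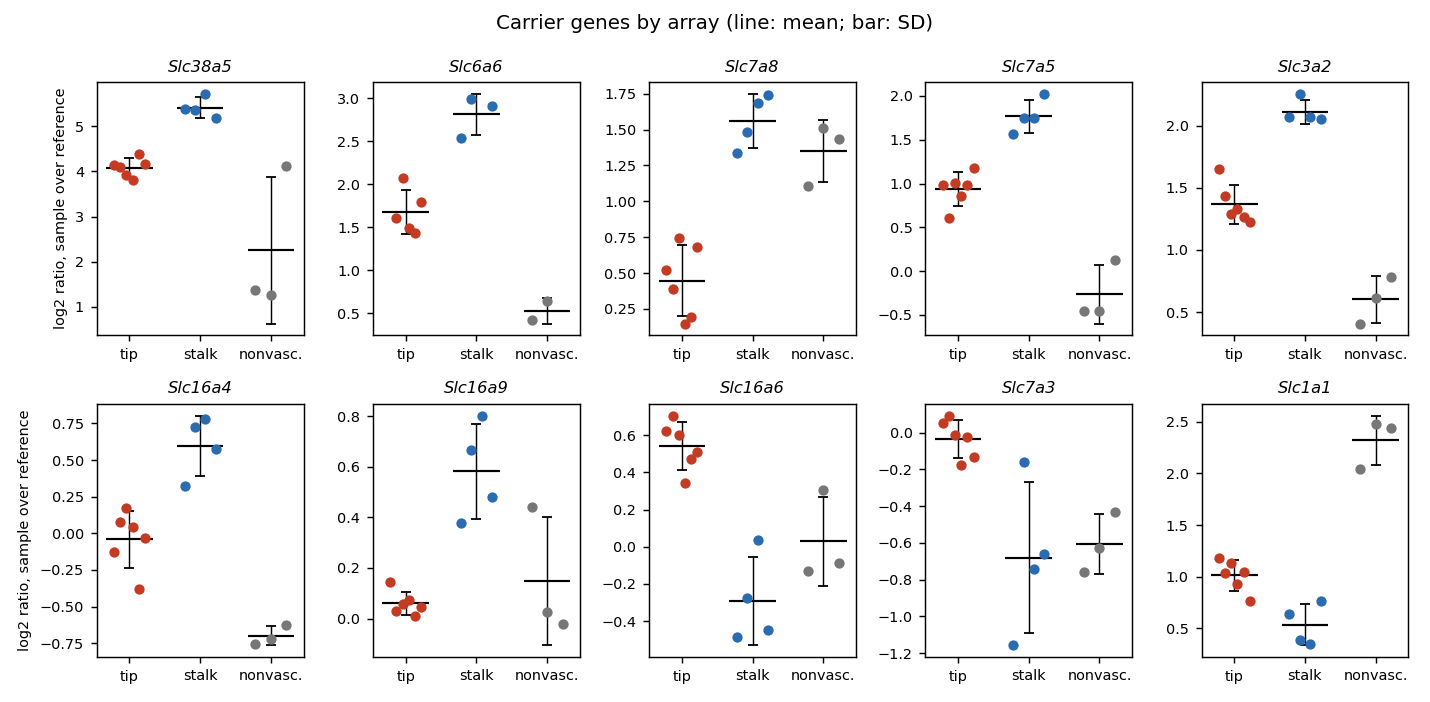
Log2 ratio of sample over reference (y axis) of 10 carriers on each tip, stalk and nonvascular array (x axis); points are arrays, lines are means and bars are SD. For Slc3a2, Slc7a5, Slc6a6 and Slc16a4 all tip arrays lie between the stalk and the nonvascular arrays, and for Slc38a5 nonvascular replicate 3 (4.12) lies among the tip arrays.

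The light chains for cystine and for cationic with neutral amino acids differed less between tip and stalk. Slc7a7 (y+LAT1), which exports cationic amino acids in exchange for neutral ones, was at 2.17, 2.34 and 2.57 on tip arrays, against 2.59, 2.41, 2.74 and 2.54 on stalk arrays and 0.30, 0.50 and 1.54 on nonvascular arrays. Tip and stalk overlapped (−0.21 ± 0.19, adjusted p = 0.615), and both lay above nonvascular retina by 1.57 ± 0.21 (adjusted p = 7.87e-05) and 1.79 ± 0.23 (adjusted p = 4.97e-05). Without nonvascular replicate 3 these differences were 1.96 and 2.17. Slc7a11 (xCT), the cystine and glutamate exchanger with the ATF4-type elements shown above, averaged −0.11 ± 0.05 in tip, −0.05 ± 0.06 in stalk and −0.04 ± 0.02 in nonvascular samples (SD). It was called in no comparison, with differences of −0.06, −0.07 and −0.02. Tip minus stalk, 2 of the 10 light chains tested were called lower and 0 higher, beside 1.32% lower and 1.47% higher of all genes.

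The cationic carriers take up arginine and lysine. Slc7a3 (CAT3) was at −0.18, −0.02 and 0.09 on tip arrays, against −1.16, −0.16, −0.74 and −0.66 on stalk arrays and −0.76, −0.63 and −0.43 on nonvascular arrays. Stalk replicate 2 lay among the tip arrays and the other 3 below them. The difference of 0.65 ± 0.15 from stalk had an adjusted p of 0.0364, but this call was lost in 15 of 23 alternatives (adjusted p = 0.00363 to 0.252 over all of them). Slc7a1 (CAT1), the widely expressed arginine carrier, averaged 0.52 ± 0.09 in tip, 0.66 ± 0.07 in stalk and 0.39 ± 0.05 in nonvascular samples (SD). It was higher in stalk than in nonvascular retina (0.27 ± 0.07, adjusted p = 0.00577), a call lost with median centring (0.11, adjusted p = 0.422) and when brightness was a covariate (0.17, adjusted p = 0.115), and 0.45 with the Feature Extraction log ratio. Tip minus stalk was not called (−0.14, adjusted p = 0.186).

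The taurine carrier Slc6a6 (TauT), which supplies the retina with taurine, had the lowest called difference between tip and stalk. Its levels were 1.43, 1.61 and 2.07 on 5 tip arrays, against 2.54, 2.99 and 2.90 on 3 stalk arrays and 0.42 and 0.64 on 2 nonvascular arrays. The spot was marked as an outlier on 1 array of each group and left out there. The 3 groups did not overlap, and tip was 2.19-fold lower than stalk (−1.13 ± 0.16, adjusted p = 0.00642). Tip minus nonvascular was 1.15 ± 0.18 (adjusted p = 0.000826) and stalk minus nonvascular 2.28 ± 0.20 (adjusted p = 1.28e-05). The other Slc6a6 probe had differences of 0.14, 0.11 and −0.03, and with the mean of both the tip minus stalk value was −0.23 (adjusted p = 0.803) and neither difference from nonvascular retina was called (adjusted p = 0.277 and 0.162). The result is that of the brighter probe. The creatine carrier Slc6a8 was called in no comparison (0.10, adjusted p = 0.681 for tip minus stalk).

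The sodium-coupled neutral amino acid carrier Slc38a5 (SNAT5), which moves glutamine, serine and glycine, had the largest difference in size between tip and stalk and yet was not called. It stood at 3.81, 4.12 and 4.39 on tip arrays, against 5.39, 5.37, 5.72 and 5.18 on stalk arrays and 1.37, 1.25 and 4.12 on nonvascular arrays. Every tip array was below every stalk array. The difference was −1.33 ± 0.43 (adjusted p = 0.13), with a standard error that includes the spread of the nonvascular arrays. With only the 2 groups compared the adjusted p was 0.000458, and without nonvascular replicate 3 it was 0.000168 (range over alternatives 0.000168 to 0.511). Against nonvascular retina Slc38a5 was higher by 1.84 ± 0.48 in tip (adjusted p = 0.0106) and by 3.17 ± 0.51 in stalk (adjusted p = 0.000375), and without replicate 3 by 2.78 and 4.10. The tip call was lost without nonvascular replicate 1 (adjusted p = 0.0746) or 2 (0.0768).

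Other members of the family differed in smaller steps. Slc38a3 (SNAT3), a glutamine carrier of glia, was at 1.22, 1.72 and 1.96 on tip arrays, against 1.33, 1.51, 1.74 and 1.44 on stalk arrays and 0.37, 0.30 and 0.91 on nonvascular arrays. Both vessel groups were higher than nonvascular retina, by 1.17 ± 0.17 (adjusted p = 0.000169) and 0.98 ± 0.18 (adjusted p = 0.00118). Slc38a2 (SNAT2), which cells raise on amino acid shortage, gave different answers with its 2 probes. The brighter probe differed by 0.27 (tip minus nonvascular, adjusted p = 0.182) and −0.01 (stalk minus nonvascular, adjusted p = 0.978), the other by 2.01 and 2.33. With their mean the differences were 1.14 (adjusted p = 9.96e-07) and 1.16 (adjusted p = 1.56e-06). Slc38a1 (SNAT1) was called in no comparison. Slc38a10, named after its values were seen, also had tip arrays (−0.68 to −0.41) below stalk arrays (−0.41 to 0.15) and was not called (−0.28, adjusted p = 0.227).

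**Figure D3:**
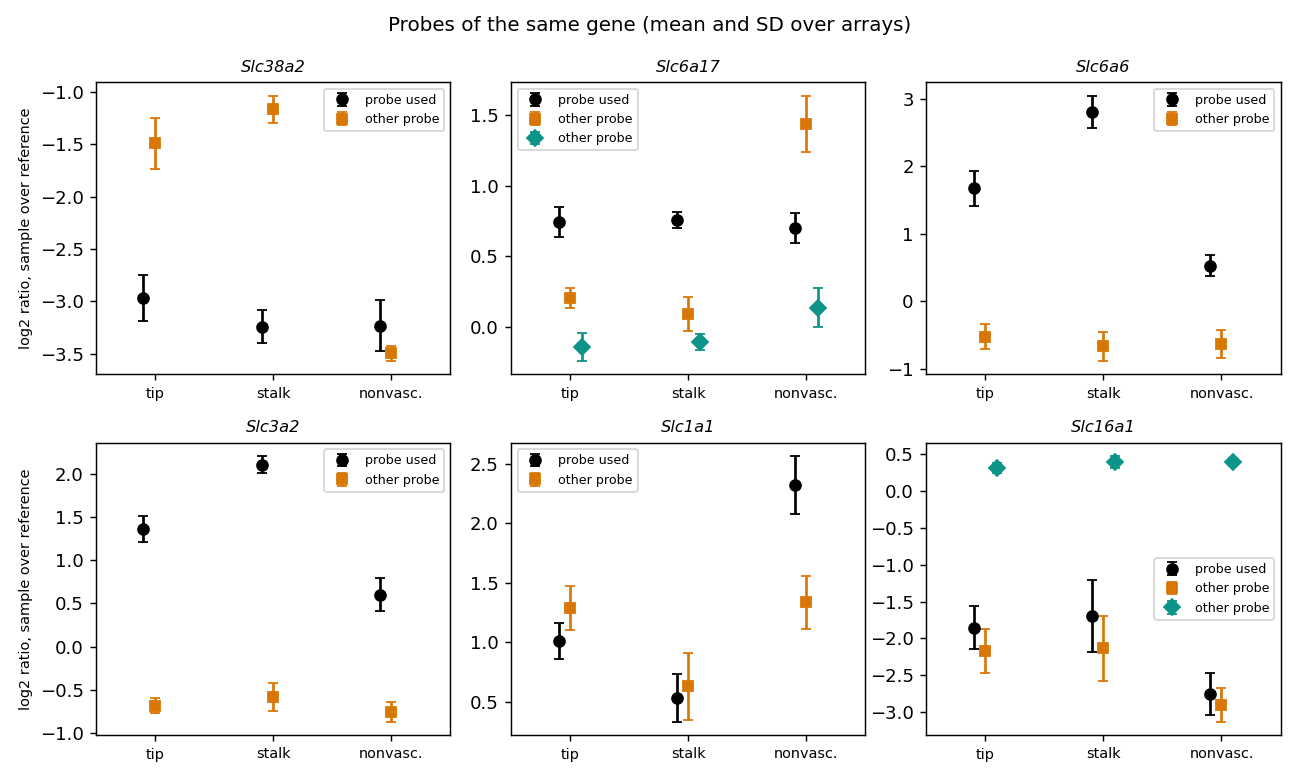
Mean log2 ratio of sample over reference with SD over arrays (y axis) in tip, stalk and nonvascular samples (x axis) for each probe of 6 carriers; black is the probe that stands for the gene, colours are the other probes. The second probes of Slc38a2 and Slc6a17 differ between vessel and nonvascular samples where the probe used does not, and those of Slc6a6 and Slc3a2 vary less than the probe used.

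Monocarboxylate carriers proper (Slc16a1, Slc16a3, Slc16a7 and Slc16a8), which move lactate, pyruvate and ketone bodies with protons, had 0 of 4 called between tip and stalk. Over all genes 2.79% were called there in either direction, so a count from 4 genes says little. Slc16a3 (MCT4), the lactate exporter of glycolytic cells, was at −1.40, −1.14 and −0.99 on tip arrays, against −1.28, −1.49, −1.67 and −1.70 on stalk arrays and −0.95, −1.30 and −0.78 on nonvascular arrays. Tip minus stalk was 0.39 ± 0.11 (adjusted p = 0.0957), and stalk was below nonvascular retina (−0.53 ± 0.14, adjusted p = 0.00994). This stalk call was lost when nonvascular replicate 3 was left out (adjusted p = 0.0524) and when brightness was a covariate (0.0754). Slc16a1 (MCT1), the lactate carrier of brain and retinal endothelium, had −2.37, −1.82 and −1.48 on tip arrays, against −1.94, −1.83, −0.98 and −2.05 on stalk arrays and −2.83, −2.98 and −2.43 on nonvascular arrays. Both vessel groups were higher than nonvascular retina (0.89 ± 0.23, adjusted p = 0.0103, and 1.05 ± 0.25, adjusted p = 0.0058) and overlapped each other. With median centring neither was called (adjusted p = 0.124 and 0.0567), the tip call was also lost without nonvascular replicate 2 (0.0608), and of its other probes 1 differed by 0.73 and 0.77 and 1 by −0.09 and 0.00. The mean of the Slc16a1 probes gave 0.51 and 0.60. Slc16a7 (MCT2), a high-affinity carrier of neurons, was lower than in nonvascular retina in both (−0.73 ± 0.12, adjusted p = 0.000364, and −0.59 ± 0.13, adjusted p = 0.00297), with −1.37 in tip from the Feature Extraction log ratio and −0.98 in stalk with median centring.

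Among 9 other SLC16 members, 1 was called higher in tip relative to stalk and 2 lower, beside 1.47% higher and 1.32% lower of all genes. Slc16a6 (MCT7), known as an exporter of the ketone body beta-hydroxybutyrate in zebrafish liver, had 0.34, 0.56 and 0.71 on tip arrays, against −0.48, −0.28, 0.04 and −0.45 on stalk arrays and −0.13, 0.30 and −0.09 on nonvascular arrays. Tip arrays lay above both other groups. The difference from stalk was 0.84 ± 0.12 (adjusted p = 0.0022, 1.79-fold), kept its call in 23 of 23 alternatives, and was 0.50 at the other probe. Tip was also above nonvascular retina by 0.51 ± 0.13 (adjusted p = 0.00754), a call lost with the mean of the probes (0.24, adjusted p = 0.281), with median centring (0.278) and without nonvascular replicate 1 (0.0504).

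Slc16a4 (MCT5), a member without a settled substrate, was at −0.38, 0.01 and 0.18 on tip arrays, against 0.32, 0.72, 0.78 and 0.57 on stalk arrays. It fell by 0.64 ± 0.11 in tip relative to stalk (adjusted p = 0.00886), with ranges that did not overlap. On the nonvascular arrays the probe was not well above background (0 of 3), so its level there is only an upper bound. The fitted differences from nonvascular retina were 0.66 ± 0.12 in tip (adjusted p = 0.000915) and 1.30 ± 0.13 in stalk (adjusted p = 6e-06), and their size depended on the processing. They were 0.33 and 0.69 with the mean of the probes and 3.05 and 4.74 with the Feature Extraction log ratio, and the other probe differed by 0.00 and 0.09. Between tip and stalk the other probe differed by −0.09, and the value was −1.69 with the Feature Extraction log ratio and −0.37 with the mean of the probes. Slc16a9 (MCT9), linked to carnitine efflux in human cells, was at 0.01, 0.05 and 0.14 on tip arrays, against 0.38, 0.66, 0.80 and 0.48 on stalk arrays and 0.44, 0.02 and −0.02 on nonvascular arrays. Tip lay below stalk throughout (−0.52 ± 0.10, adjusted p = 0.0134), with a value of −1.16 from the Feature Extraction log ratio.

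The glutamate carriers drive glutamate into cells with sodium. Slc1a1 (EAAC1), a carrier of neurons for glutamate and cysteine, was at 0.76, 1.04 and 1.18 on tip arrays, against 0.64, 0.38, 0.35 and 0.76 on stalk arrays and 2.04, 2.48 and 2.44 on nonvascular arrays. The highest stalk array met the lowest tip array. The difference of 0.48 ± 0.11 (adjusted p = 0.0428) was lost in 14 of 23 alternatives (range 0.0105 to 0.282) and was 0.66 at the other probe. Ganglion cell markers averaged 0.44 to 0.83 on tip and −0.30 to 0.68 on stalk arrays, and their part in the result was not tested. Against nonvascular retina Slc1a1 was lower in both, by −1.31 ± 0.12 (adjusted p = 3.84e-06) and −1.79 ± 0.13 (adjusted p = 5.02e-07), whereas the other probe differed by −0.05 and −0.71 and the mean of both by −0.68 in tip. Slc1a3 (GLAST), the glutamate carrier of Mueller glia and astrocytes, overlapped between tip and stalk (−0.27 ± 0.33, adjusted p = 0.718). Of the exchangers of small neutral amino acids, Slc1a4 (ASCT1) missed the threshold (−0.48 ± 0.12, adjusted p = 0.0502) and was called in 4 alternatives, and Slc1a5 (ASCT2), which takes up glutamine, differed by 0.39 ± 0.13 (adjusted p = 0.143).

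The carriers lower in tip than in stalk moved in the same direction as pericyte markers, whose 10 genes had a median of −0.78. Of 10 endothelial genes 2 were called lower, Cldn5 (−1.16 ± 0.14, adjusted p = 0.000799) and Egfl7 (−0.41 ± 0.06, adjusted p = 0.00474). The endothelial list had a median of −0.29, and 3 of its 10 genes had a positive difference, with 0 called higher. Red signal over background was 105 to 292 on tip and 98.1 to 141 on stalk arrays. The part of these in the carrier results was not tested. Arrays were scanned group after group, so the order of scanning cannot be told apart from the groups.

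Against nonvascular retina more carriers differed, as did more genes in all. In tip 15 of 71 were higher and 14 lower, which are 21.1% and 19.7% of the members, beside 11.1% and 16.8% of all genes (27.9% in either direction). In stalk 15 were higher and 13 lower (21.1% and 18.3%), beside 11.3% and 18.6% of all genes (29.8% in either direction). Array ranges did not overlap for 12 of 71 members above and 13 of 71 below in tip, beside 11% and 16.7% of all genes. In stalk they did not overlap for 16 of 71 members above and 12 of 71 below, beside 16% and 21.3% of all genes. Of 251 other Slc genes, 37 were higher and 44 lower in tip, and 39 and 53 in stalk. The median difference of the members was −0.01 in tip and 0.01 in stalk, and that of all genes was −0.01 and 0.00. Without nonvascular replicate 3 the counts were 15 and 13 for tip and 15 and 12 for stalk. With median centring tip had 9 higher and 14 lower, and over all genes 2186 higher and 5604 lower, against 3571 and 5386 with loess. Both comparisons use the same 3 nonvascular arrays.

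**Figure D4:**
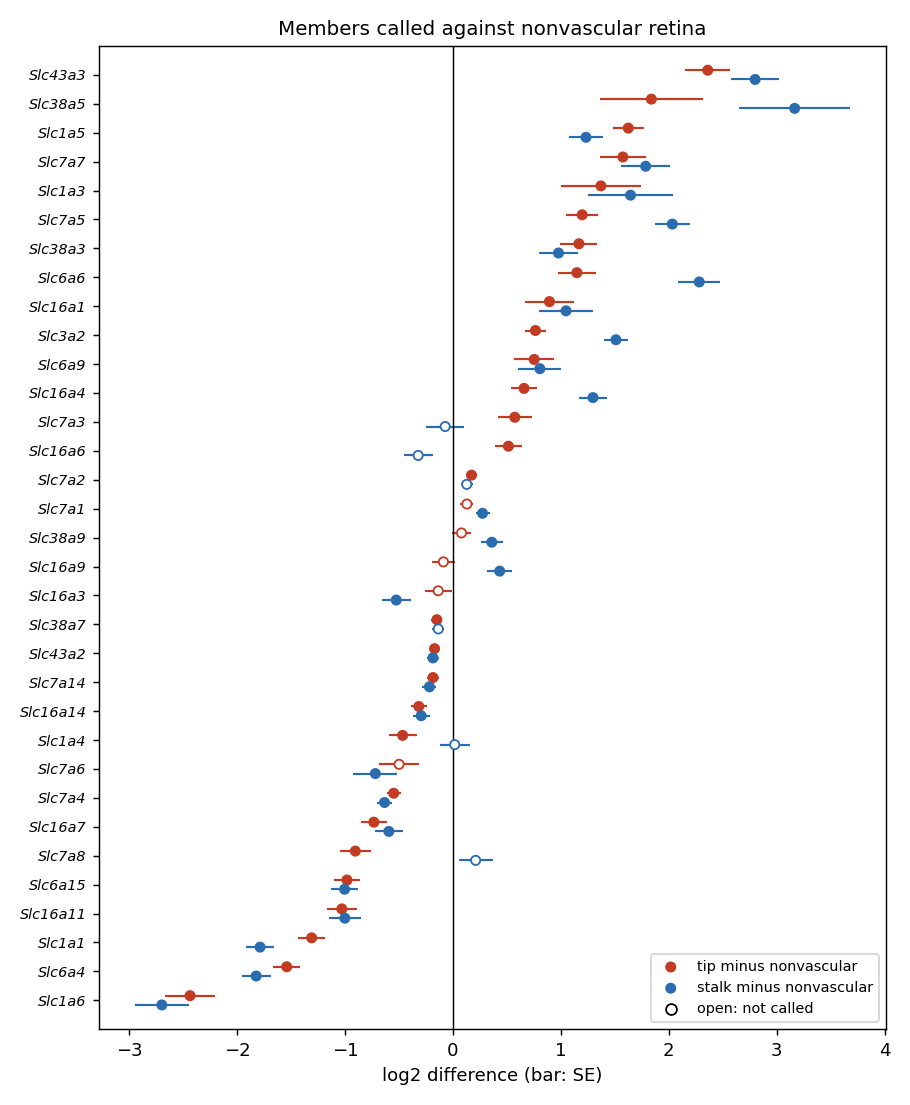
Differences from nonvascular retina (log2, x axis) of the reported members called in either comparison (y axis), tip in red above stalk in blue, with bars for the standard error and open circles where not called. Slc43a3 has the highest difference in tip (2.36) and Slc38a5 in stalk (3.17), and Slc1a6 has the lowest shown in both (−2.44 and −2.70).

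Slc43a3, known as a carrier of purine nucleobases, was the member with the highest called difference in tip. It was at 0.44, 0.59 and 1.02 on tip arrays, against −1.98, −1.92 and −1.19 on nonvascular arrays, and at 0.84, 1.38, 1.44 and 0.75 on stalk arrays. The differences were 2.36 ± 0.21 in tip (adjusted p = 2.1e-06, 5.14-fold) and 2.80 ± 0.22 in stalk (adjusted p = 9.1e-07, 6.96-fold). Slc1a5 was at −0.72, −0.36 and −0.16 on tip arrays, against −2.04, −1.94 and −2.10 on nonvascular arrays, and at −0.55, −1.22, −0.67 and −0.73 on stalk arrays. It was higher by 1.62 ± 0.15 (adjusted p = 2.52e-06) and 1.23 ± 0.16 (adjusted p = 5.06e-05), and kept both calls in 23 of 23 alternatives. Slc7a5 was 2.29-fold higher in tip (adjusted p = 4.09e-05) and 4.09-fold higher in stalk (adjusted p = 8e-07), and Slc3a2 was higher by 0.76 ± 0.10 (adjusted p = 6.48e-05) and 1.51 ± 0.11 (adjusted p = 3.55e-07). With median centring the tip value of Slc3a2 was 0.52 (adjusted p = 0.0861), its other probe differed by 0.07 and 0.17, and with the mean of both probes the values were 0.42 and 0.84.

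Slc1a3 and Slc6a9 were higher in both vessel groups, with values that moved with the third nonvascular array. Slc1a3 was at 4.26, 4.64 and 5.02 on tip arrays and at 4.89, 4.81, 5.06 and 4.86 on stalk arrays, against 2.85, 2.31 and 4.61 on nonvascular arrays. Nonvascular replicate 3 lay within the tip range. The differences were 1.37 ± 0.37 in tip (adjusted p = 0.0128) and 1.65 ± 0.40 in stalk (adjusted p = 0.00633), and without this array 2.05 and 2.32. In tip the call was lost without nonvascular replicate 1 (1.17, adjusted p = 0.0733) or 2 (0.90, adjusted p = 0.0877), in stalk with the brightness covariate (0.0799). The glycine carrier Slc6a9 (GlyT1), found in glia and amacrine cells, had −0.62, −0.39 and −0.20 on tip arrays and −0.23, −0.33, −0.20 and −0.59 on stalk arrays, against −1.23, −1.63 and −0.56 on nonvascular arrays. It was higher by 0.75 ± 0.18 (adjusted p = 0.00738) and 0.81 ± 0.20 (adjusted p = 0.00736), with adjusted p of 0.000125 in tip and 0.000126 in stalk when replicate 3 was left out. With median centring neither was called (adjusted p = 0.15 and 0.084). Astrocyte markers averaged 0.50 to 1.77 on the nonvascular arrays and at least 1.82 on every tip and stalk array, with 3 of 7 genes higher in each vessel group and 0 lower. Of 8 Mueller glia genes 5 were higher in tip and 4 in stalk, and 0 were lower. Their part in the carrier results was not tested. The glial glutamate carrier Slc1a2 (GLT-1) was called in no comparison, except lower in tip than in nonvascular retina without nonvascular replicate 2 (−0.20, adjusted p = 0.0391).

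**Figure D5:**
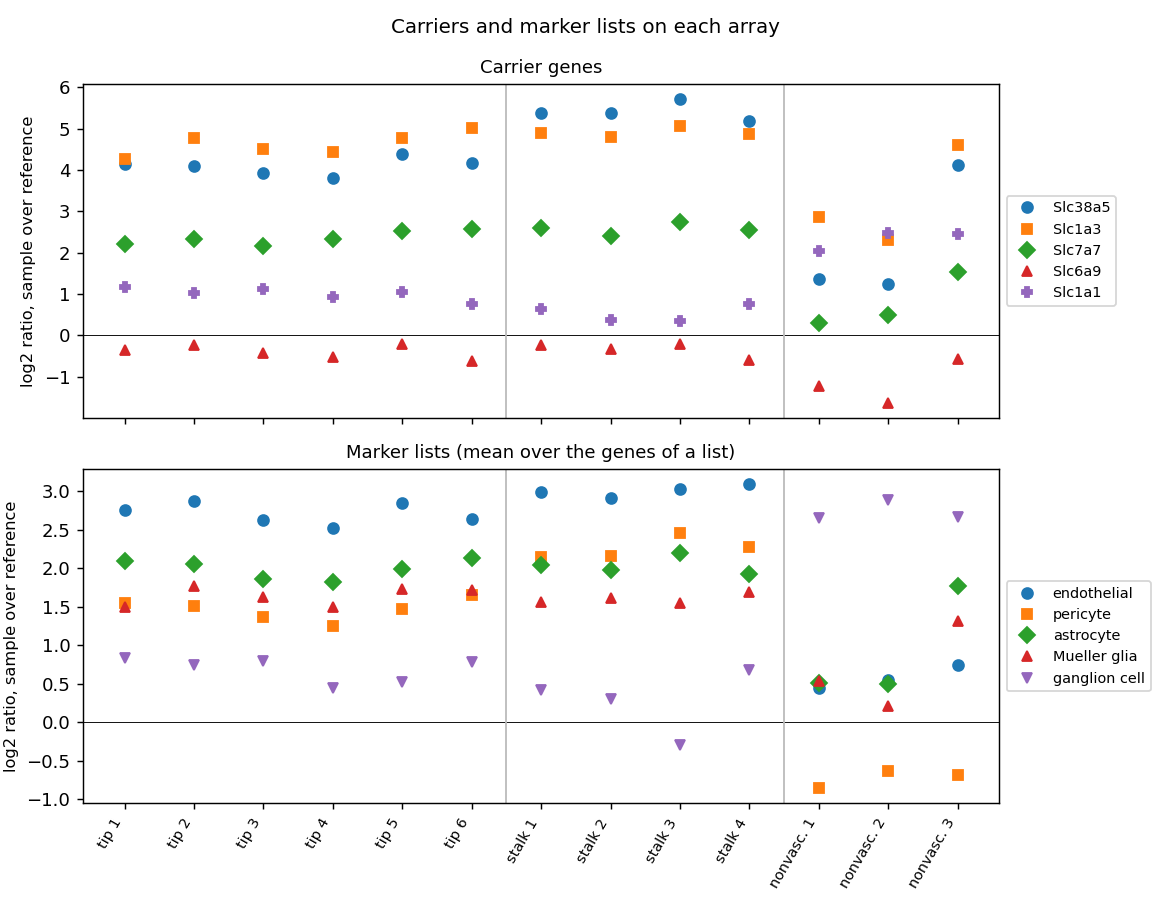
Log2 ratio of sample over reference (y axis) on each array (x axis; tip, stalk and nonvascular arrays from left to right) of 5 carriers (upper panel) and of the mean over the genes of 5 marker lists (lower panel). On nonvascular replicate 3, Slc38a5 (4.12), Slc1a3 (4.61) and Slc7a7 (1.54) and the astrocyte (1.77) and Mueller glia (1.31) lists are nearer to the vessel arrays than on the other 2 nonvascular arrays. The endothelial list is at 0.74 there, against 0.45 and 0.54 on the other 2, and the pericyte list at −0.68, against −0.86 and −0.64.

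Slc1a6, Slc6a4, Slc6a15 and Slc16a11 were among the members lower in both vessel groups. Slc1a6 (EAAT4), a glutamate carrier best known from Purkinje cells, was lower by −2.44 ± 0.23 (adjusted p = 4.21e-06) and −2.70 ± 0.25 (adjusted p = 3.32e-06). The serotonin carrier Slc6a4, which developing ganglion cells of the mouse express for a time, averaged 0.53 ± 0.25 in tip and 0.25 ± 0.06 in stalk, against 2.07 ± 0.10 in nonvascular samples (SD). Its differences were −1.54 and −1.82 (adjusted p = 1.01e-06 and 4.4e-07), and −2.65 and −3.09 with the Feature Extraction log ratio. The neutral amino acid carrier Slc6a15 of neurons was 1.98-fold and 2.01-fold lower (adjusted p = 2.82e-05 and 4.27e-05), and its differences were −1.75 and −1.91 with the Feature Extraction log ratio. Slc16a11, a member with a proposed role in lipid metabolism, was also lower (adjusted p = 9.13e-05 and 0.000206), by −1.03 in tip. Ganglion cell markers were also lower, 9 of 10 in tip and 8 of 10 in stalk, and their part was not tested. Among 10 genes of amacrine, horizontal and bipolar cells 4 were lower in each vessel group, as were 4 of 10 photoreceptor genes, and 7 (tip) and 6 (stalk) of 10 genes of microglia and macrophages.

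Most members called in no comparison varied little at the probe that stood for the gene. Of the 71, 34 were called in at least 1 comparison and 37 in none. Of those 37, 31 stayed within 0.25 (log2) in every comparison. Among all genes, 2.79% were called in tip minus stalk, 27.9% in tip minus nonvascular and 29.8% in stalk minus nonvascular. Over all genes, the shares called in at least 1 comparison and within 0.25 throughout were not counted. Other probes of some of the 37 members called in none differed more. Another Slc6a17 probe differed from nonvascular retina by −1.23 in tip and −1.35 in stalk, and another Slc6a13 probe by −0.63 and −0.77. The other Slc6a11 probe differed by 0.45 between tip and stalk. The 4 proton-coupled carriers of the SLC36 family had 0 called in any comparison. So few genes cannot be set apart from the shares of all genes above. Slc36a1 (PAT1), which exports amino acids from lysosomes, had differences of 0.10, −0.09 and −0.19. The lowest adjusted p of Slc36a1 was 0.0612, for stalk minus nonvascular, and it was called there in 3 of 23 alternatives (lowest adjusted p = 0.0332). Slc43a2 (LAT4), a uniporter of large neutral amino acids, was lower in tip (−0.17 ± 0.05, adjusted p = 0.0268) and stalk (−0.19 ± 0.06, adjusted p = 0.0247) than in nonvascular retina, calls that were lost in 5 and 9 of 23 alternatives. With the Feature Extraction log ratio the Slc43a2 values were −0.42 and −0.37. Of the 25 members with 2 or more probes, probes were apart by over 0.5 in 5 for tip minus stalk, in 12 for tip minus nonvascular and in 10 for stalk minus nonvascular.

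Genes that sense or use the carried metabolites were counted from 4 lists, and over all genes 1.47% were higher and 1.32% lower in tip relative to stalk. Between tip and stalk, 4 of 20 ATF4 targets of the amino acid shortage response were higher and 0 lower (median 0.22). They included Vldlr, a lipoprotein receptor (1.34 ± 0.17, adjusted p = 0.00127), the kinase-like regulator Trib3 (0.45 ± 0.09, adjusted p = 0.0207) and Chac1, which degrades glutathione (0.57 ± 0.12, adjusted p = 0.0253). The fourth, Pycr1 of proline synthesis, is named after its values were seen (0.26, adjusted p = 0.047). Atf4 itself differed by 0.22 (adjusted p = 0.651). Of 26 genes of amino acid metabolism 1 was higher, the branched-chain aminotransferase Bcat1 (0.84 ± 0.14, adjusted p = 0.00773), and 2 were lower, the glutamine synthetase Glul (−0.99 ± 0.13, adjusted p = 0.0015) and the proline dehydrogenase Prodh (−0.57 ± 0.10, adjusted p = 0.0102), with a median of 0.04. Glul is also in the Mueller glia list. Of 16 genes of lactate and pyruvate handling, the ketone body enzyme Bdh1 was higher (0.57 ± 0.09, adjusted p = 0.00609) and 0 were lower (median 0.17). Amino acid sensing of mTORC1 had 0 of 20 called by limma and a median of 0.05. Of these 20, 8 had an unadjusted p under 0.05, beside 5783 of all 32047 genes.

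Against nonvascular retina the same lists had higher and lower members. ATF4 targets had 9 higher and 3 lower in tip and 6 and 3 in stalk, mTORC1 sensing had 4 and 5 in tip and 6 and 7 in stalk, and amino acid metabolism 7 and 5 in tip and 7 and 6 in stalk. Lactate and pyruvate genes were mostly lower, with 2 higher and 9 lower in tip (median −0.62) and 2 higher and 10 lower in stalk (median −0.81), beside 11.1% higher and 16.8% lower of all genes in tip and 11.3% and 18.6% in stalk.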

How the data were processed

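Scans of the 13 arrays were quantified by version 8.5.1.1 of Agilent's Feature Extraction program, per the file headers, and the deposited mean intensity and local background intensity of each spot and channel are not normalized. The log10 ratio in the deposited files is processed red over green after a spatial background subtraction and dye normalization, per the file headers. The values that the authors deposited as a series table are ratios on a linear scale, red over green: at least 99.94% of its probes per array equalled the antilog of that log10 ratio within 0.001, with array medians of 0.08 to 0.20 (log2) and 631 to 1555 probes missing. RNA was extracted with the PicoPure kit and amplified linearly, per the labels' protocols.

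From the mean intensities, background was corrected with normexp (offset 50) and arrays were normalized by loess in limma 3.58.1 (R 4.3.3, with version 1.17.8 of data.table), with control spots at weight 0 and then left out. Spots marked as outliers were set to missing and repeated spots averaged. The brightest probe stood for a gene, and red had to be well above background on at least 3 arrays. Limma's moderated test was fitted to all 13 arrays with 3 group means, so a spread within nonvascular arrays also enters tip minus stalk. P-values were adjusted by Benjamini-Hochberg over 32047 genes and genes with adjusted p under 0.05 were called. Of 41174 probes, 22072 were named by their own accession through RefSeq, 142 by another accession, 1091 by the symbol in the description, and 17869 kept the file's name. Promoters came from RefSeq (GRCm38.p6).

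The members, the gene lists and the tests were chosen with earlier results of these data known. Named carriers are 25 fixed names, every member called between tip and stalk, and the 5 largest called differences per direction against nonvascular retina among members that the brighter group detected above background throughout, plus up to 3 called genes per list with the smallest p. Text names Slc38a10, Slc6a17 and other genes outside this rule only where a count or a probe difference calls for it. Values of 2 members are not reported here, although they are in the counts. The fit was tested on simulated tip minus stalk data of 32047 genes with 200 changed: 98% of genes changed by 1 (log2) and 100% of those changed by 2 were recovered, and 5.71% of calls were of unchanged genes. The simulated noise was normal and independent between genes and arrays, with the fitted spread of each gene. It had no missing spots and no array effects. These rates therefore check the fit and are not the error rates of the real arrays. Alternatives covered background correction, the source of the ratio, centring, the probe, the filter, the samples in the fit, the replicate block, array brightness and leaving out each array. All arrays but tip replicate 5 were scanned on 1 day, so leaving that array out stands for the scan day. Figures were drawn with matplotlib 3.10.9, and tables were prepared with Python 3.11.15 and pandas 2.3.3.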

Additional observations from a re-analysis of the deposited data

Results flagged for a closer look

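In 3 of 67 sets of values, each a named carrier in the tip or the stalk group, 1 array lay far from the others. Chance alone gives such an array in about 1 in 20 groups. The glutamate carrier Slc1a2 was at 0.22 on tip replicate 1, against 0.09 to 0.12 on the other tip arrays. The heavy chain Slc3a2 was at 2.26 on stalk replicate 2, against 2.05 to 2.07 on the other stalk arrays. Slc16a11 was at 0.011 on stalk replicate 4, against −0.45 to −0.40 on the other stalk arrays.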

How the results depend on the processing

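The 3 differences of 34 named carriers were recomputed under 23 alternatives, 2346 values in all. Of these, 2249 kept their side of the threshold, among them 51 called in neither fit whose sign changed. Another 77 lost their call, 19 gained one and 1 reversed: Slc38a2 in stalk minus nonvascular became 1.16 with the mean of its probes, which differ. The count of carriers higher in tip than in stalk, 3, became 1 with the Feature Extraction log ratio, the deposited ratios, median centring and array brightness in the model, and was 1 to 3 when each array was left out in turn. It was 1 without tip replicate 1, 2, 3, 4 or 5, stalk replicate 1 or 3, or nonvascular replicate 2. The count higher in tip than in nonvascular retina, 15, became 9 with median centring. Carriers lower in tip than in stalk numbered 5 to 8. Over all genes, tip minus stalk gave 471 higher and 422 lower, against 311 and 387 with the Feature Extraction log ratio, 297 and 385 with the deposited ratios, 49 and 203 with median centring and 77 and 148 with brightness in the model. Leaving out 1 array gave 187 higher and 258 lower (without stalk replicate 1) to 1021 higher and 585 lower (without tip replicate 6). Causes were not tested.

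The replicate number as a block left 1 carrier higher in tip than in stalk and 9 lower in tip than in nonvascular retina, against 14 without it. Samples with the same number showed little common deviation (correlations of −0.14 to 0.08 over 10 pairs). In groups this small such values cannot exclude pairing, and the labels do not say whether the numbers pair the samples. Slc16a9 (−0.51, adjusted p = 0.0968), Slc7a3 (0.67, adjusted p = 0.0821) and Slc1a1 (0.53, adjusted p = 0.102) were then not called between tip and stalk, nor was Slc1a3 in tip minus nonvascular (1.25, adjusted p = 0.0673).

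Small differences between groups of 3 to 6 arrays are limited by their number, and red was well above background for 85.0% to 95.4% of spots per array.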
